A study of Mus musculus with 2 samples.

Results

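The genes described here are 30 interferon-response genes of the mouse, followed across the cell classes of the perivascular fat dissected from the aorta. They were taken by symbol, and all 30 were found once each among the 31053 genes counted in both libraries. The type I list held 21 of them, best known as targets of type I interferons. The second list held 6 guanylate-binding proteins (GBP) and immunity-related GTPases (IRG), best known as targets of interferon gamma. The remaining 3 were the transcription factor Irf1 and the chemokines Cxcl9 and Cxcl10. The study made 1 single-cell RNA library (10x Genomics, 3′ chemistry) from primary perivascular stromal cells of young mice and 1 from those of old mice, all wild type (WT). The labels state no age in weeks, sex, number of mice or culture step. As each age has 1 library, differences between young and old cannot be set against a spread between animals, and no p-value was computed.

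Type I interferons bind the receptor pair Ifnar1 and Ifnar2, and interferon gamma binds Ifngr1 and Ifngr2. Through the kinases Jak1 and Tyk2, type I interferons activate a complex containing Stat2 and Irf9 that binds interferon-stimulated response elements. Interferon gamma, through Jak1 and Jak2, acts mainly at gamma-activated sites and through Irf1. Many targets respond to both, so the lists name the best-known inducer and not an exclusive one. Their products include RNA-binding and membrane proteins that limit viruses, GTPases that attack the membranes around intracellular microbes, and chemokines that draw T cells.

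Promoters in the RefSeq table for GRCm38.p6, each 300 bases long from 250 before to 50 after a gene's start, were matched for 23 of the 30 members, with no entry for Ifi27l2a, Ifi27, Usp18, Zbp1, Iigp1, Rtp4 and Ifi204. The letters GAAANNGAAA, the core of an interferon-stimulated response element, were searched on both strands. They were found in the promoters of 15 of these 23 members, or 65.2%, against 3.99% of the 27025 genes in the table. By list, 10 of 15 type I members, 4 of 5 GBP and IRG members, and Cxcl10 alone of the chemokines and Irf1 held a match. TTCNNNGAA, the core of a gamma-activated site, was found in 7 of 23 members and in 9.55% of all genes. Both searches covered the same bases, so matches to the 2 motifs can overlap, as they did in Bst2 and Ifitm3. Ifit2, Irf7, Irf9, Oasl2, Xaf1, Ifi47, Irf1 and Cxcl9 held no GAAANNGAAA match in this window. A match describes the letters only. The stretches below are examples upstream of members named in the results, and stretches that overlapped an annotated exon were left out. Each GAAANNGAAA match, or its reverse complement, is in capitals, and the letters read 5′ to 3′ on the gene's strand.
Isg15, chr4:156200851-156200920, minus strand: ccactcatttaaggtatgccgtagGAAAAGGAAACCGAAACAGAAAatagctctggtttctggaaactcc
Ifit1, chr19:34640765-34640833, plus strand: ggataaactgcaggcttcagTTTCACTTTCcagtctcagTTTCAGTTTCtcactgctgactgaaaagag
Ifit3, chr19:34583360-34583429, plus strand: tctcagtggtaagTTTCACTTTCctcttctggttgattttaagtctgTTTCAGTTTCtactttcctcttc
Rsad2, chr12:26456533-26456602, minus strand: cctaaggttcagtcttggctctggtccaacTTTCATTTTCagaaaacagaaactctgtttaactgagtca
Cxcl10, chr5:92349063-92349132, minus strand: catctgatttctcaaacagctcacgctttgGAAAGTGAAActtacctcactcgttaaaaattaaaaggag
Igtp, chr11:58199492-58199555, plus strand: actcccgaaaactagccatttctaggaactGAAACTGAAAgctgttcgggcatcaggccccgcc
In Isg15, 3 overlapping matches formed 1 run. Ifit1 and Ifit3 each held 2 separate matches. The neighbouring copy Ifit3b carried the same 70 bases as Ifit3, identical at all 70 positions. In Gbp2 the match read GAAAGTGAAA and lay at chr3:142620604-142620613.

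In GENCODE vM21 on GRCm38 the Ifit genes sit side by side on chromosome 19, with Ifit2 at 34550694-34576419, Ifit3 at 34583531-34588731, Ifit3b at 34607970-34613401 and Ifit1 at 34640871-34650009. Gbp7 (142530342-142550149), Gbp3 (142560026-142573209) and Gbp2 (142620602-142638008) are neighbours on chromosome 3. The Gbp2 match given above lies inside these Gbp2 coordinates, though upstream of the RefSeq start. Cxcl9 and Cxcl10 are neighbours on chromosome 5, and Ifi204 and Ifi203 lie close together on chromosome 1. Members of these families resemble each other, so counts of Ifit3 and Ifit3b, Ifi203 and Ifi204, Oas1a and its copies, and the Gbp genes are uncertain where reads could be assigned to a relative.

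Barcodes were put into classes by 8 marker genes each, needing at least 4 detected and at most 2 of any other non-mesenchymal list. This gave 9530 young and 10107 old mesenchymal barcodes, 30 and 1041 endothelial, 239 and 40 mesothelial, 33 and 58 Schwann, and 1 and 100 macrophage barcodes, while 1620 young and 861 old barcodes fell in no class. Counts are of UMIs (unique molecular identifiers, one per captured RNA molecule), and levels are in CPM, the UMIs of a gene scaled to a total of 1000000 over a class in 1 library. Each class held all 8 of its own markers above 0 in both libraries, except that the single young macrophage barcode lacked 1. Mesothelial barcodes also carried mesenchymal markers, summed to 4600 CPM in young and 3890 CPM in old barcodes, against 6762 and 5567 in mesenchymal barcodes. The medians per mesenchymal barcode were 9334.5 UMIs in young and 9462 in old barcodes. All 95% intervals (exact Poisson for levels and ratios, Clopper-Pearson for shares) cover counting error only. The libraries shared 275 barcode sequences.

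In mesenchymal barcodes the interferon-response genes were mostly higher in the old library. All 30 members passed the minimum of 20 UMIs over both libraries, and the old library exceeded the young by at least 1.5-fold for 19 of them, lay at least 1.5-fold under it for 1 and within these limits for 10. Of the 15161 genes that passed, 19.8% were at least 1.5-fold higher and 12.3% at least 1.5-fold lower. The median log2(old/young) was 0.75 over the 30 members and 0.13 over all genes. The type I list and the GBP and IRG list had the same median of 0.74, with 12 of 21 members higher and 1 lower in the first and 4 of 6 higher in the second. Summed markers of other cells moved with library in the same barcodes. The 8 macrophage markers summed to 13.0 CPM in young and 29.8 in old barcodes, of which Csf1r alone gave 12.6 and 24.2. The 8 endothelial markers summed to 12.9 and 37.3, of which Egfl7 alone gave 9.15 and 18.6. The 4 pericyte markers summed to 3.59 and 13.5, and the 5 adipocyte markers to 1.60 and 10.1. The part of other cells in the difference was not tested.

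**Figure D1:**
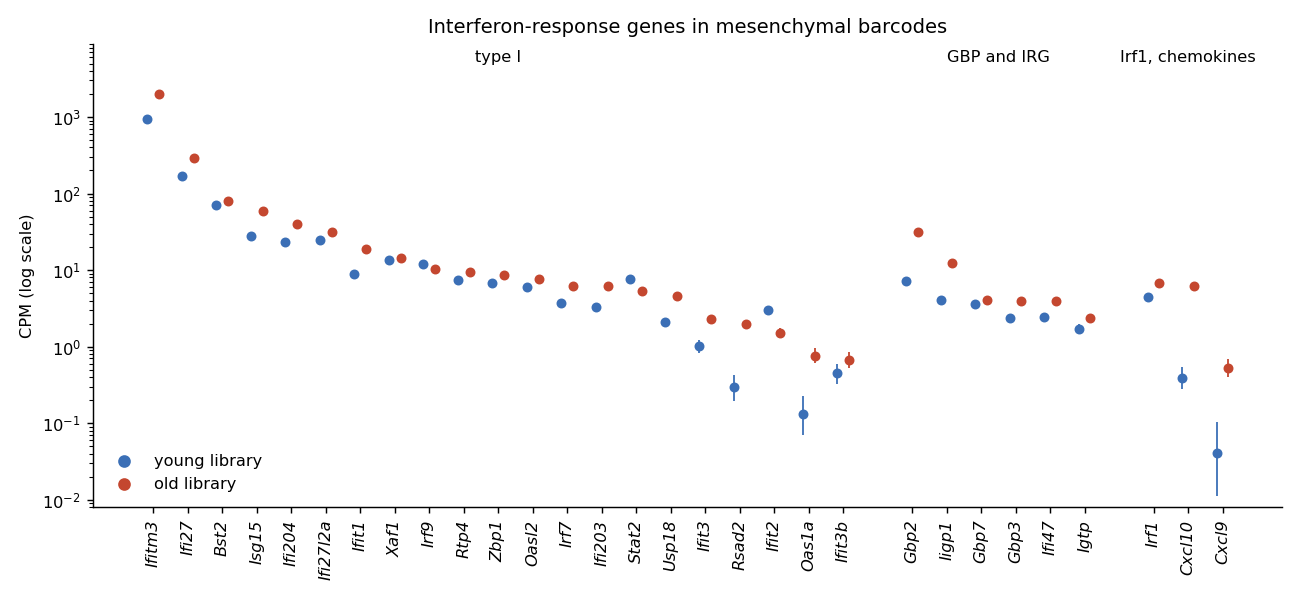
Level of each of the 30 members in mesenchymal barcodes (CPM, log axis) in the young (blue) and old (red) library, by list, with exact Poisson 95% intervals; 1 library per age. Gbp2, Cxcl10 and Rsad2 show wide gaps in favour of the old library, Ifit2 and Stat2 lie higher in the young library, and Bst2 and Xaf1 nearly coincide.

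Among the antiviral effectors, Isg15, a ubiquitin-like protein that is attached to other proteins, stood at 27.8 CPM in young and 58.6 in old barcodes, a log2 difference of 1.07 (95% interval 1.01 to 1.14). Ifit1, which binds foreign RNA ends, stood at 8.93 and 18.7, with a log2 difference of 1.06 (0.95 to 1.18). Ifitm3, a membrane protein that blocks virus entry, stood at 928 and 1975, with a log2 difference of 1.09 (1.08 to 1.10). The intervals of these genes lie well apart between the libraries. Ifi27, an interferon alpha-inducible protein, stood at 170 in young and 291 in old barcodes (log2 0.78).

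Rsad2 (viperin, an enzyme that makes a chain-terminating nucleotide) had 29 UMIs in young and 210 in old barcodes, a log2 difference of 2.74 (2.17 to 3.35). Oas1a, an oligoadenylate synthetase, had 13 and 82 UMIs, a log2 difference of 2.54 (1.68 to 3.51). Both rested on few UMIs in the young library. Ifit3 stood at 1.01 and 2.27 CPM (log2 1.17) and its copy Ifit3b at 0.445 and 0.669 (log2 0.59, 0.03 to 1.17).

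The type I genes did not move as a block. Ifit2, which lies next to Ifit3 in the genome, had 295 UMIs in young and 162 in old barcodes, and its log2 difference of -0.99 (-1.27 to -0.70) ran against those of Ifit1 and Ifit3. Stat2, a component of the complex that activates these genes, stood at 7.69 in young and 5.38 in old barcodes (log2 -0.52), and Irf9, its partner, at 11.9 and 10.2 (log2 -0.23), neither past 1.5-fold, though Stat2 was past it with median-of-ratios size factors (-0.64). Irf7, the transcription factor that amplifies type I interferon production, stood at 3.75 and 6.25 (log2 0.74). Usp18, which removes Isg15 and damps the receptor, stood at 2.08 and 4.53 (log2 1.12).

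Ifi203 and Ifi204, of the PYHIN family of nucleic acid binding proteins, had log2 differences of 0.92 and 0.78, with Ifi204 at 23.2 in young and 39.8 in old barcodes. The remaining 6 type I members lay within 1.5-fold, between 0.06 for Xaf1 (-0.07 with median-of-ratios size factors) and 0.36 for Zbp1, a sensor of nucleic acids. Bst2 (tetherin, which holds budding viruses on the cell surface) stood at 71.1 and 79.2 CPM.

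Of the GTPases, Gbp2 stood at 7.10 CPM in young and 31.1 in old barcodes, a log2 difference of 2.13 (2.01 to 2.25). Iigp1, an IRG protein that loads onto the vacuoles of intracellular parasites, stood at 4.06 and 12.3 (log2 1.60, 1.44 to 1.77). Gbp3 and Ifi47 differed less, at log2 0.77 and 0.71, and Igtp (0.47) and Gbp7 (0.15) lay within 1.5-fold. The 3 neighbouring Gbp genes on chromosome 3 thus spanned log2 differences from 0.15 to 2.13.

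Irf1 stood at 4.43 in young and 6.68 in old barcodes, a log2 difference of 0.59 (0.42 to 0.77). Cxcl10 had 39 UMIs in young and 658 in old barcodes, a log2 difference of 3.96 (3.49 to 4.46). Cxcl9 had 4 and 57 UMIs, a log2 difference of 3.71 (2.28 to 5.64). Both chemokines bind Cxcr3, a receptor on activated T cells, and all 3 of these members exceeded 1.5-fold in favour of the old library. With median-of-ratios size factors Irf1, at 0.46, no longer did, and neither did Ifit3b (0.46) or Ifi47 (0.58).

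The rest of the pathway was read from lists of genes outside the 30. Of 11 interferon genes, none passed the minimum in mesenchymal barcodes, where 1 UMI of Ifng in the young library was the sole count. A count of 0 among the 107549986 mesenchymal UMIs of the old library allows up to 3 UMIs of any of them. Of all 15161 genes, 19.8% were higher and 12.3% lower in old barcodes by at least 1.5-fold, to be set beside each count that follows. Of 9 receptors and kinases that passed, 4 were higher in old barcodes by at least 1.5-fold and 0 were lower. Ifnar2 stood at 31.7 in young and 78.3 in old barcodes (log2 1.31), Ifnar1 at 21.5 and 42.3 (0.97), Ifngr1 at 30.6 and 50.7 (0.73) and Jak2 at 31.4 and 51.9 (0.73). Both receptor systems were therefore represented among the higher genes.

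Of 6 restraints, 3 were higher in the old library and 0 lower. Socs1, which inhibits the receptor kinases, stood at 7.81 and 26.5 CPM (log2 1.76). Of 11 sensors 2 were higher, near the share of 19.8% over all genes, namely Nod1 (log2 1.53) and Mb21d1, the DNA sensor cGAS (0.99). Of 30 further type I targets that passed, 11 were higher and 3 lower, against 19.8% and 12.3% of all genes. Ifitm1 stood at 0.718 and 8.36 (log2 3.54), Ifi205 at 0.687 and 7.48 (3.44), Oasl1 at 0.273 and 2.08 (2.93) and Ifitm2 at 455 and 1102 (1.27).

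Of 9 further GBP and IRG genes that passed, 5 were higher and 2 lower. Gbp5 had 3 UMIs in young and 235 in old barcodes, a log2 difference of 6.17 (4.61 to 8.46). The IRG genes Gm4951 (log2 1.69) and 9930111J21Rik2 (-1.21) differed in opposite directions. Both lists of further targets held genes past 1.5-fold in each direction, as did all genes, with 19.8% higher and 12.3% lower.

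The differences were spread over barcodes in unlike ways. The 3341 Gbp2 UMIs of the old library lay in 2414 of 10107 mesenchymal barcodes, or 23.9%, against 640 of 9530, or 6.72%, in the young library. The 210 Rsad2 UMIs of the old library lay in 40 barcodes, and 3 barcodes held 50% of them. Cxcl10 lay between, with 658 UMIs in 196 barcodes, of which 9 held 50%. For Ifit1, 61 of 792 barcodes held 50% of the 2007 UMIs of the old library, and 1 barcode held 100.

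Counting barcodes with a UMI in place of UMIs, a setting chosen after the data were seen, moved these genes by different amounts. Gbp2 was at log2(old/young) 1.83 by that count, against 2.13 by UMIs. The others fell further, Cxcl10 to 3.07 from 3.96, Rsad2 to 0.78 from 2.74 and Ifit1 to 0.36 from 1.06, under 1.5-fold for Ifit1. Ifitm3, found in nearly every barcode of both libraries, was at 0.01 and cannot be read by this count. The median of the type I list by that count was 0.34, against 0.74 by UMIs.

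**Figure D2:**
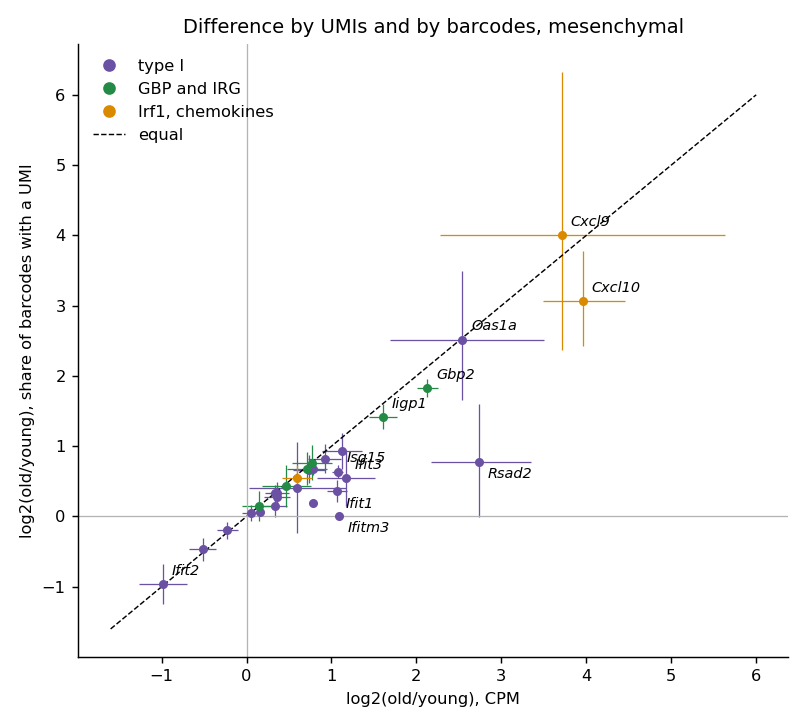
Log2(old/young) of each member in mesenchymal barcodes by CPM (horizontal) and by the share of barcodes with a UMI (vertical), with 95% intervals for counting error; the dashed line marks equal values. Gbp2 and Oas1a lie near the line, whereas Rsad2 (2.74 against 0.78), Cxcl10 (3.96 against 3.07) and Ifit1 (1.06 against 0.36) lie below it. Ifitm3, which nearly every barcode held, lies below it too.

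With each barcode thinned to 2000 UMIs, which left out 61 young and 54 old mesenchymal barcodes, Isg15 was found in 5.65% of young and 9.34% of old barcodes (17.9% and 27.9% without thinning). Gbp2 was found in 142 of 9469 young and 672 of 10053 old thinned barcodes, the latter 6.68%, Iigp1 in 0.993% and 2.82%, and Ifit2 in 0.634% and 0.328%. Over the 30 members, the interval of the old library lay above that of the young for 16 and below it for 1, against 26.4% and 12.7% of the 15161 genes. Free RNA can add to such shares. Endothelial markers, which mark another class, summed to 12.9 CPM in young and 37.3 in old mesenchymal barcodes, against 3490 and 2612 in endothelial ones. Egfl7 alone gave 9.15 and 18.6 CPM of the sums in mesenchymal barcodes. The part of free RNA in the members' shares was not tested.

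Barcodes with at least 4 of 17 type I members (leaving out Ifitm3, Bst2, Ifi27 and Stat2) were rare after thinning. They made up 22 of 9469 young mesenchymal barcodes, or 0.232% (0.146 to 0.352), and 79 of 10053 old ones, or 0.786% (0.623 to 0.978). Barcodes with at least 3 of the 6 GBP and IRG members numbered 1 and 11, or 0.0106% and 0.109%. Thinned to 1000 UMIs, the shares for type I members were 0.0210% and 0.257%.

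Members met in the same barcodes of the old library somewhat more often than the product of their shares gives. The observed number over that product had a median of 1.32 over 94 type I pairs with at least 5 expected (range 0.55 to 5.85), 1.54 over 46 pairs with 1 gene of each list, and 2.09 over 3 GBP and IRG pairs. The type I pairs were drawn from all 21 members, with Ifitm3, Ifi27 and Bst2, which many barcodes hold. A gene that nearly every barcode holds, such as Ifitm3, keeps this value near 1. The 3 medians therefore cannot be ranked against each other. The pairs that follow were picked after their values were seen. Ifit1 with Rtp4 had the highest value, 5.85, of the type I pairs with at least 5 expected. Ifit1 with Ifit3 had fewer than 5 expected, so that pair lies outside the medians and the range above. Of the 249 thinned barcodes with Ifit1, 7.23% (4.34 to 11.2) held Ifit3, against 0.255% (0.165 to 0.376) of the 9804 without Ifit1. Rtp4 was found in 12.9% of Ifit1 barcodes and in 1.93% of the others. Of 672 barcodes with Gbp2, 7.59% held Iigp1, against 2.47% of the rest. The barcodes were thinned to 2000 UMIs each, but the pairs share cell state, and the values are descriptions over cells of 1 library.

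The 3 old mesenchymal barcodes with the most Rsad2 UMIs, picked after the values were seen, held 18, 24 and 19 of the 30 members, against a median of 4 members per old mesenchymal barcode. They held 54, 44 and 30 UMIs of Rsad2, 72, 100 and 26 of Ifit1, and 17, 81 and 22 of Cxcl10. Their total UMIs were 10267, 15325 and 9790, near or above the median of 9462. None of the 3 held a UMI of an interferon gene.

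A single barcode in the old endothelial class had the same pattern, with 43 of that class's 48 Rsad2 UMIs and 82 of its 131 Ifit1 UMIs. It held both Ifnb1 UMIs that were found in any gated class of either library. Ifnb1 encodes interferon beta. Ifne, another type I interferon gene, had 4 UMIs in 3 barcodes of that class. This barcode had 4 endothelial markers, the fewest that the gate admits, and 9970 UMIs in total.

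Levels differed between clusters of the mesenchymal barcodes (Leiden clusters of both libraries together, of at least 100 barcodes). The 17 type I members summed to between 48.5 and 209 CPM in 8 clusters of young barcodes and between 142 and 374 in 6 clusters of old barcodes. The 6 GBP and IRG members summed to between 7.64 and 29.9 in the young and between 27.5 and 115 in the old clusters. Cluster 17 of the old library was highest for both sums. It held 3175 barcodes, or 31.4% of old mesenchymal barcodes, and was led by Draxin, Igkc, Gm4951, Kng1, Slc36a2 and Saa3. As 1 library was made per age, a cluster mostly of 1 library may reflect that library, and the clustering could use the members themselves, so these levels are descriptions.

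In cluster 17 Iigp1 stood at 35.4 CPM and Gbp2 at 54.0. Without it, a setting added after the data were seen, Iigp1 was at log2(old/young) 0.50 and within 1.5-fold, and Gbp2 at 1.79. The list medians were then 0.48 for type I and 0.37 for GBP and IRG, with 13 members higher and 2 lower. The shares of all genes past 1.5-fold were not computed for this setting, so these counts have no comparison. Only the old library lost its highest cluster, while the young library kept its own, so a fall of the medians was partly built in. Rsad2, at 2.76, was as high without cluster 17. Cluster 8, led in both libraries by S100a6 and S100a4 among others, had type I sums of 169 in 138 young and 168 in 101 old barcodes, and GBP and IRG sums of 12.5 and 27.5, which rest on 10 and 18 UMIs.

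**Figure D3:**
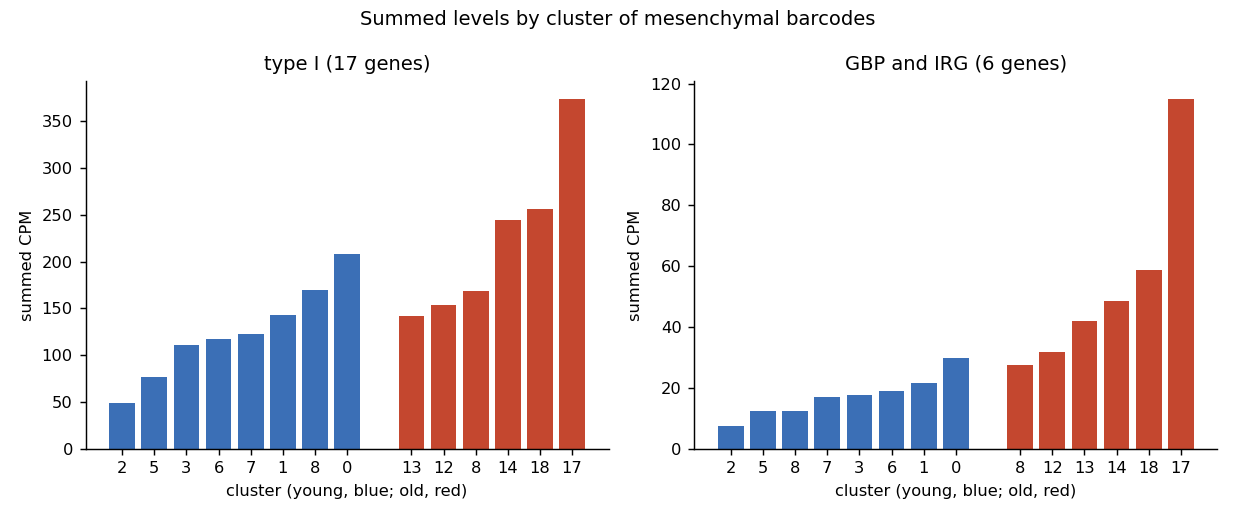
Summed level (CPM) of 17 type I members (left) and 6 GBP and IRG members (right) in each cluster of mesenchymal barcodes with at least 100 barcodes, in the young (blue) and old (red) library; each bar is 1 cluster of 1 library. Cluster 17 of the old library reaches 374 and 115, and cluster 0 is highest in the young library at 209 and 29.9.

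Proliferating mesenchymal barcodes (at least 3 of 6 proliferation markers) held less of Isg15 than the others in both libraries, at 15.5 against 33.1 CPM in the young and 36.4 against 67.9 in the old library. Iigp1 and Gbp2 were likewise lower in them, Gbp2 at 17.2 against 36.9 in the old library. Ifit2 went the other way in both libraries, at 3.85 against 2.61 in the young and 2.48 against 1.10 in the old library. Cxcl10 in the old library was also higher in proliferating barcodes, at 10.6 against 4.25 CPM. Without the 3 barcodes that held the most Cxcl10 it stood at 5.86 against 3.71. In the young library Cxcl10 stood at 0.503 against 0.347, from 15 and 24 UMIs. Rsad2 in the old library stood at 3.52 CPM in proliferating against 1.29 in other barcodes, but without the 3 barcodes that held the most of it, 2 of them proliferating, it stood at 0.441 against 0.898, so the direction rested on single barcodes.

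The members differed in level between classes. Bst2 was high in endothelial barcodes in both libraries, at 372 CPM in the young and 292 in the old, against 71.1 and 79.2 in mesenchymal barcodes, with intervals that do not overlap. In the old library its order was endothelial, macrophage (192), mesothelial (146), mesenchymal and Schwann (37.5), and among neighbours in that order the intervals of macrophage and mesothelial barcodes overlapped. Oasl2, a relative of the oligoadenylate synthetases, was highest in mesothelial barcodes in both libraries, at 73.0 in the young and 112 in the old, against 6.06 and 7.75 in mesenchymal barcodes. Its levels in endothelial, Schwann and macrophage barcodes, from 1.48 to 13.0, rest on 2 to 18 UMIs each.

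**Figure D4:**
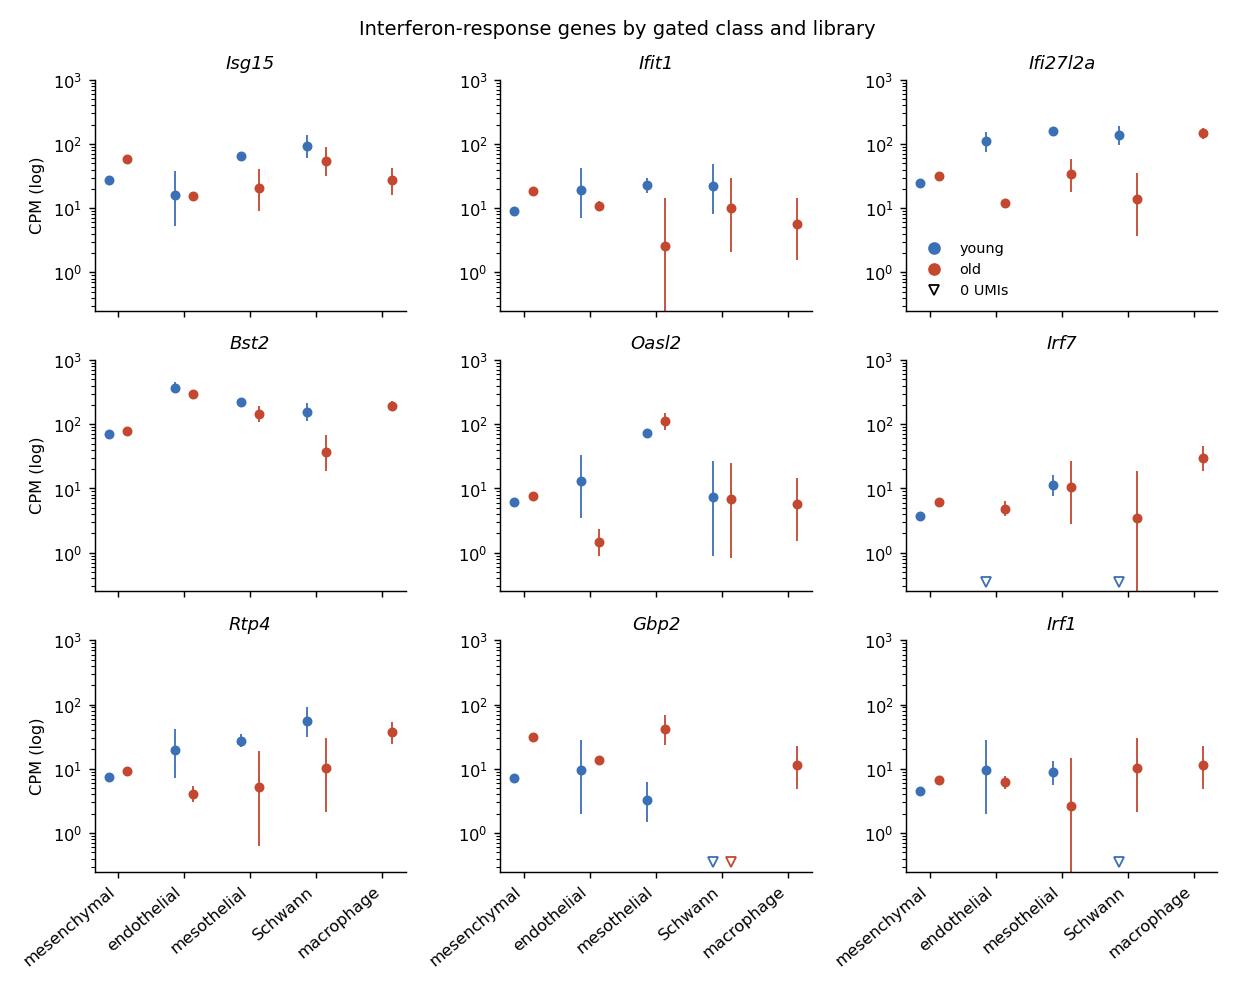
Level of 9 members (CPM, log axis) in each gated class of the young (blue) and old (red) library, with exact Poisson 95% intervals; open triangles mark 0 UMIs, and the single young macrophage barcode is not drawn. Oasl2 is highest in mesothelial barcodes of both libraries, and Ifi27l2a is higher in young than in old endothelial, mesothelial and Schwann barcodes.

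In the young library several type I members stood higher in mesothelial than in mesenchymal barcodes, with Ifi27l2a, Isg15 and Rtp4 as examples. The comparison was made for 23 members with at least 20 UMIs over both classes and at least 5 expected in the smaller class at equal levels, a limit set after the data were seen. As that limit depends on the level in the larger class, no count over the members that passed is given here or below where some members did not pass. Ifi27l2a stood at 157 in mesothelial against 24.9 in mesenchymal barcodes (log2 2.65), Isg15 at 65.6 against 27.8 (1.24) and Rtp4 at 27.5 against 7.42 (1.89). Gbp3 stood at 10.3 against 2.35 (2.13), whereas Gbp2 went the other way, at 3.30 against 7.10 (-1.10). Barcodes with at least 4 of the 17 type I members made up 7 of 239, or 2.93% (1.19 to 5.94). Cxcl10 had 57 UMIs there, with 50% in 2 barcodes.

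All 30 members passed in endothelial barcodes of the old library. These had lower levels than mesenchymal ones for 18 of 30 members and higher levels for 3, against 28.6% and 15% of 13147 genes. The median of the type I list was -0.88 and that of the GBP and IRG list -0.35. Ifi204 stood at 5.35 against 39.8 (log2 -2.89) and Isg15 at 15.4 against 58.6 (-1.93). The 3 higher members were Bst2 (1.88), Ifi47 (0.91) and Rsad2 (1.02). Mesenchymal markers summed to 1128 CPM in these barcodes, 20.3% of their 5567 in mesenchymal barcodes, and 5 of the 30 members (Oasl2, Zbp1, Ifi204, Iigp1 and Cxcl9) stood at or under that share of their mesenchymal level, where free RNA and endothelial expression cannot be told apart. The value of Rsad2 rests on the single barcode described above, and with at least 5 markers required for each class it was -2.06.

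In the 100 macrophage barcodes of the old library, mesenchymal markers summed to 23.8% of their mesenchymal level. There, 14 members had enough UMIs for the comparison with mesenchymal barcodes. Mesenchymal markers summed there to 23.8% of their mesenchymal level. Their median log2 was -0.37, near the -0.43 over the 8463 genes that passed. Rtp4 stood at 36.9 against 9.37 CPM (log2 1.98), Bst2 at 192 against 79.2 (1.27) and Ifitm3 at 3014 against 1975 (0.61). Other members were lower in macrophage barcodes, such as Isg15 at 27.0 against 58.6, Ifi27 at 146 against 291 and Gbp2 at 11.4 against 31.1. Ifi27l2a stood at 146 against 31.4, but 2 barcodes held 50% of its 103 UMIs and 1 held 41. Irf7 had 21 UMIs and stood at 29.8. Cxcl9 had 7 UMIs and stood at 9.94, and both genes fell under the minimum for the comparison.

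Few members could be compared between ages outside the mesenchymal class, because 1 of the libraries was small there each time. In mesothelial barcodes 12 of 30 members passed the limits given above, which members high in the larger young class pass more easily, so the values describe those members only. Isg15 had 179 UMIs (65.6 CPM) in the young and 8 (20.9) in the old mesothelial barcodes, a log2 difference of -1.65. Ifi27l2a stood at 157 and 33.9 (-2.21) and Ifit1 at 22.7 and 2.61 (-3.12), the latter from 1 UMI in the old library. Oasl2 (0.62) and Ifitm3 (0.63) were higher in the old library. The median over the 6477 genes that passed was -0.04. Gbp2 did not pass, and its 9 young and 16 old UMIs stood at 3.30 and 41.7 CPM. With the minimum of 20 UMIs alone, a looser limit that also selects, the mesothelial median was -0.38 over 14 type I members (interval of the middle member -2.80 to 1.30) and 1.39 over 4 GBP and IRG members (-0.18 to 2.77).

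In Schwann barcodes 5 members passed. Mesenchymal markers summed there to 2662 CPM in young and 3054 in old barcodes, against 6762 and 5567 in mesenchymal ones. Exactly 4 Schwann markers were held by 22 of 33 young and 34 of 58 old barcodes, and the median UMIs were 7432 and 4946.5. The part of these differences in the values was not tested. Ifi27l2a stood at 138 in young and 13.7 in old barcodes (log2 -3.34), from 37 and 4 UMIs, and 3 barcodes held 50% of the young UMIs. Bst2 stood at 156 and 37.5 (-2.06). In endothelial barcodes 3 members passed, none past 1.5-fold in either direction. Their log2 differences were 0.46 for Ifitm3, -0.35 for Bst2 and -0.42 for Ifi27. Ifi27l2a did not pass there, and 22 of its 34 UMIs in young endothelial barcodes lay in 1 barcode. With the minimum of 20 UMIs alone, the endothelial medians were -0.85 over 15 type I members and -1.39 over 5 GBP and IRG members, with intervals of the middle member that include 0, and the Schwann type I median was -0.77 over 5.

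Set against the mesenchymal difference of the same gene (class minus mesenchymal), Isg15 differed by -2.73 in mesothelial (-3.75 to -1.71) and by -1.84 in Schwann barcodes (-2.75 to -0.94), and Ifi27 by -1.20 in endothelial barcodes (-1.56 to -0.84). Oasl2, by contrast, differed by 0.26 in mesothelial barcodes (-0.23 to 0.76). Each compares the same pair of libraries in 2 classes, so there is no replicate check here either. Gate, class size and the number of barcodes at the gate's limit moved with library: 128 of 239 young and 16 of 40 old mesothelial barcodes held exactly 4 markers. Their part in the result was not tested.

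**Figure D5:**
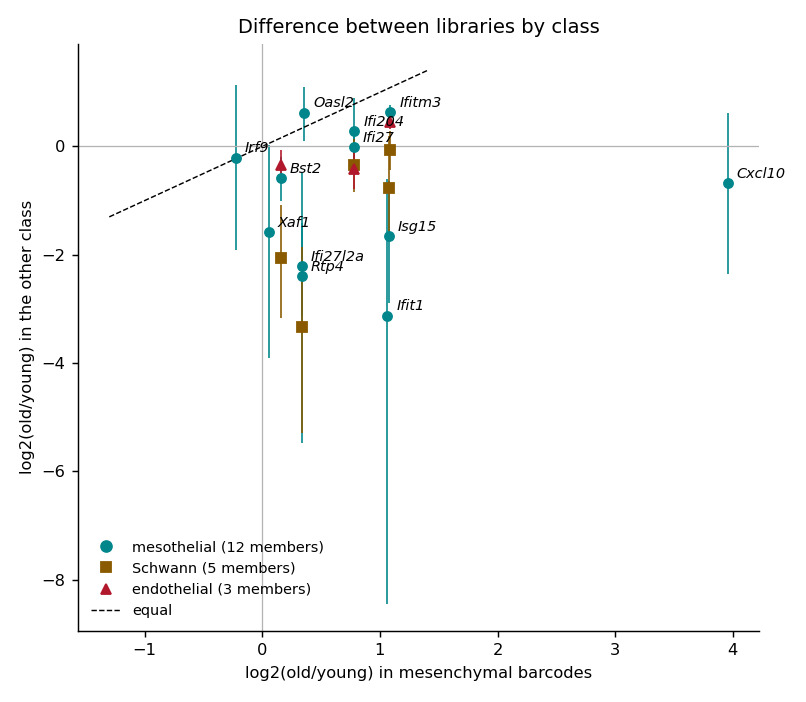
Log2(old/young) of members in mesothelial, Schwann and endothelial barcodes (vertical, with 95% intervals for counting error) against the same member in mesenchymal barcodes (horizontal); the dashed line marks equal values and mesothelial points are named. Points are the members that passed the limits, which favour members high in the larger class. Isg15 lies at -1.65 in mesothelial against 1.07 in mesenchymal barcodes, whereas Oasl2 lies at 0.62 against 0.36.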

How the data were processed

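The deposited values are unnormalized counts of UMIs per gene and barcode, written by the authors with Cell Ranger 3.0.1 per the file headers, on build mm10 per the submitters' processing notes. The young library held 13104 barcodes with 130398999 UMIs and the old library 14636 with 147166475. The filter required 500 detected genes and allowed 10% of mitochondrial UMIs. The doublet caller Scrublet (scanpy 1.11.5) marked 0 barcodes by its automatic threshold in either library, so the highest scores were removed at 0.8% per 1000 barcodes, 1302 young and 1504 old. How many doublets remain is not known. This left 11453 and 12207 barcodes, which were gated by markers. UMIs were summed per library and class and scaled to a total of 1000000 (CPM). Ratios carry exact conditional Poisson intervals. A class at 0 UMIs was given a floor of 3 in ratios, and no such ratio is printed. Thinning used a fixed random seed. No test across animals was possible. The members and lists were chosen with earlier results of these data known. All 30 members are named. Of each pathway list, up to 4 genes with at least 100 UMIs in mesenchymal barcodes and the largest difference are named, besides ligands and receptors. Marker lists of T, natural killer and B cells, neutrophils, lymphatic, dendritic and plasmacytoid dendritic cells summed to at most 2.32 CPM each in mesenchymal barcodes. Alternatives were another scaling, filters, gates, clusters as classes, a depth band and thinning depth.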

Additional observations from a re-analysis of the deposited data

Results flagged for a closer look

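The difference between the old and the young library went opposite ways in 2 classes, with both intervals for counting error off 0, for 9 pairs of a member and a class. The members compared numbered 12 in mesothelial, 5 in Schwann and 3 in endothelial barcodes. How often all genes go opposite ways was not computed, so the count cannot be read as particular to the members. The values are log2(old/young) in the class minus that in mesenchymal barcodes. In mesothelial barcodes they were -2.73 for Isg15, -4.19 for Ifit1, -2.54 for Ifi27l2a, -0.74 for Bst2 and -2.74 for Rtp4. Of these, Ifit1 rested on 1 UMI and Rtp4 on 2 UMIs in old mesothelial barcodes. In Schwann barcodes they were -3.67 for Ifi27l2a and -2.21 for Bst2, and in endothelial barcodes -1.20 for Ifi27 and -0.51 for Bst2. With 1 library per age these differences were not tested beyond counting error. They cover only members with at least 5 UMIs expected in the smaller class, a limit that members high in the larger class pass more easily. For Bst2 the opposite direction depends on the setting. Its mesenchymal log2(old/young) was 0.16, but 0.03 with median-of-ratios size factors and -0.10 without cluster 17.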

How the results depend on the processing

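In mesenchymal barcodes the type I median lay between 0.61 and 0.75 over 10 other settings, the GBP and IRG median between 0.61 and 0.79, and the count of higher members between 16 and 19. Median-of-ratios size factors gave 2 lower members in place of 1. Of the alternatives added after the data were seen, leaving out cluster 17 gave medians of 0.48 and 0.37 and 2 lower members. That setting takes the highest cluster from the old library only, so a fall of the medians was partly built in. Counting barcodes gave a type I median of 0.34. With classes from Leiden clusters the type I median of old mesothelial against mesenchymal barcodes was -0.024, against -0.43. With at least 5 markers required, Rsad2 in old endothelial against mesenchymal barcodes was -2.06, against 1.02. That gate left out the 214 of 1041 old endothelial barcodes with exactly 4 markers, among them the 1 with 43 of the 48 Rsad2 UMIs of the class. It also left out 827 of 10107 old mesenchymal barcodes. Thinned to 1000 UMIs, barcodes with at least 4 type I members made up 0.0210% of young and 0.257% of old mesenchymal barcodes, and those with at least 3 GBP and IRG members 0% and 0.0198%. The other 170 of 180 recomputed medians, counts and shares stayed within counting error or 1.5 times of their value, as did 1108 of 1214 values of single genes. No median could be formed for the GBP and IRG list in Schwann barcodes, where too few members had UMIs. No paired analysis was possible because each age has 1 library. Outside the mesenchymal class, depth limits all comparisons of age, since the smaller class of each pair held 40 barcodes or fewer.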
